A study of Rattus norvegicus with 36 samples.

Results

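Norepinephrine drives the nocturnal activity of the pineal gland, and 17 of the 29516 genes in the files were selected on measured values of these files, because their level was higher in cultured rat pineal glands given norepinephrine (NE) and little higher in glands given DBcAMP (dibutyryl cyclic AMP), a form of cyclic AMP that enters cells. Levels were counts per 1000000 read-pairs on genes (CPM), and a group was summarized by the median of its 3 libraries. Ratios were taken on the log2 scale after adding 0.5 CPM to both medians, which understates the ratio of scarce genes. A gene was selected if its log2 ratio was at least 0.8 for NE to untreated and below 0.4 for DBcAMP to untreated, and if its NE level was at least 1 CPM. Genes whose night/day log2 ratio reached 2 in both intact groups in vivo were left out, which removed 1 gene. The genes are numbered from 1 to 17 by falling ratio of NE to untreated.

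The study sequenced RNA of Sprague-Dawley rats in 36 libraries. In vitro, glands came from female rats older than those used in vivo. These glands were held in culture for 48 h and then left untreated or given 1 µM NE or 500 µM DBcAMP for 6 h. Each condition had 3 libraries. In vivo, glands of male and female rats 40 days old came from 4 surgical groups. Each group had 3 libraries at mid-day (ZT7, hours after lights-on) and 3 at midnight (ZT19). The groups were unoperated (Control), sham-operated (Sham), decentralized (DCN) and ganglionectomized (SCGX). In DCN the input to the superior cervical ganglia was cut on both sides, and in SCGX both ganglia were removed. All surgery was done on day 5 of life. Single libraries of day pineal, night pineal and a mixture of other tissues had no replicate. Every replicated library was a pool of glands, so the spread between libraries is that between pools, and fewer cells of a type cannot be told apart from less RNA per cell.

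Norepinephrine reaches the pinealocyte from sympathetic endings and acts there on β1- and α1b-adrenergic receptors. The β receptor raises cyclic AMP through adenylyl cyclase. The α1 receptor acts through phospholipase C, calcium and protein kinase C, and the paper describes it as potentiating that rise. DBcAMP enters the cell without a receptor and engages the cyclic AMP pathway. Comparing both agents asks which of the transcripts raised by NE are also raised by DBcAMP. Effects of DBcAMP outside that pathway were not tested. Genes appear in the files under Ensembl identifiers alone, so what the 17 genes encode is not given here. Only 4 are identified, the pair with the highest and the pair with the lowest mean night/day ratio over Control and Sham, an order set after values were seen: ENSRNOG00000035842 (gene 11) and ENSRNOG00000014366 (gene 1), and ENSRNOG00000042277 (gene 2) and ENSRNOG00000033087 (gene 4).

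Among 13239 genes with at least 1 CPM under NE, 567 reached the NE threshold. Of those, 477 (84.1%) also reached a log2 ratio of 0.8 with DBcAMP, 72 lay between the DBcAMP limits, and the 17 genes made up 3%. In the reverse direction, 172 genes reached 0.8 with DBcAMP and stayed below 0.4 with NE. The 17 genes had log2 ratios of NE to untreated of 0.81 to 1.46, with a median of 0.93. Their ratios of DBcAMP to untreated were -0.05 to 0.39, with a median of 0.25, and were below 0 only for genes 12 and 13. For both, the edgeR fit with TMM scaling gave a value above 0, at 0.14 (SE 0.16) for gene 12 and 0.45 (SE 0.19) for gene 13, whose DBcAMP libraries held 19.7, 20.0 and 34.3 CPM. The median gene of all 13239 stood at -0.11 with NE and -0.17 with DBcAMP. These values chose the genes and are given as a description, without a test.

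**Figure D1:**
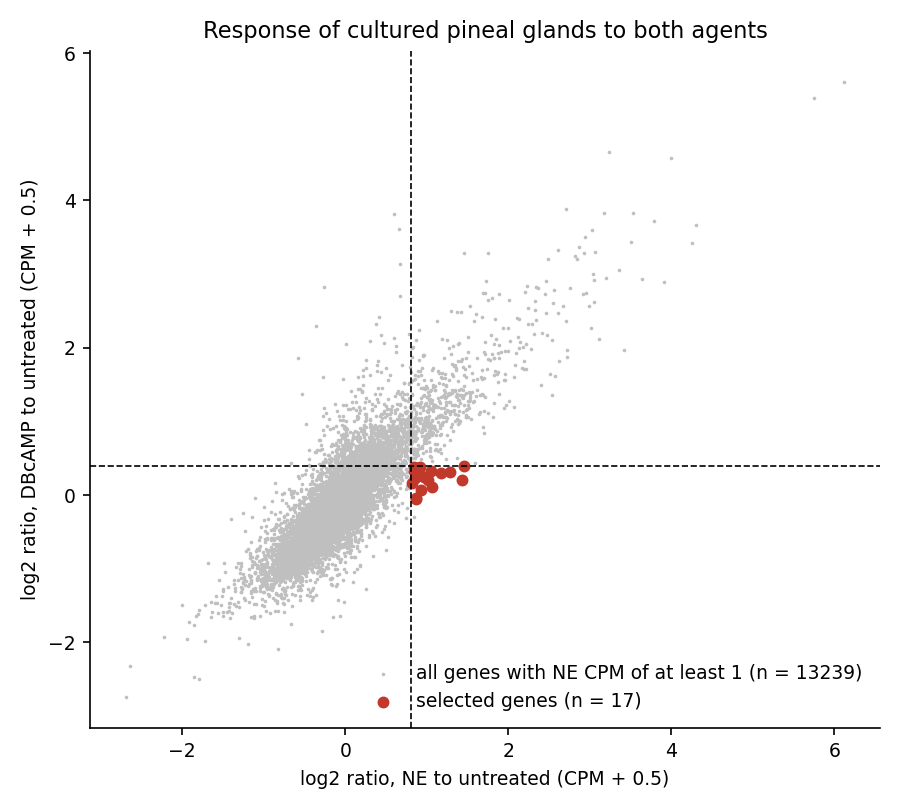
Log2 ratio of NE to untreated (x axis) against that of DBcAMP to untreated (y axis), both from group medians of CPM plus 0.5; grey points are the 13239 genes with at least 1 CPM under NE and red points the 17 selected genes. The dashed lines mark the limits of 0.8 and 0.4, and the red points lie at the edge of a band in which both ratios increase together.

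The selection lay close to its limits. The lowest NE ratios inside were 0.81 (gene 17), 0.84 (gene 16) and 0.85 (gene 15), and the nearest outside were 0.79, 0.79 and 0.78. The highest DBcAMP ratios inside were 0.39 (gene 1), 0.38 (gene 11) and 0.38 (gene 15), and the nearest outside were 0.43, 0.44 and 0.47. The lowest NE levels inside were 1.23 CPM (gene 3), 1.78 CPM (gene 9) and 1.98 CPM (gene 2), against 0.998, 0.784 and 0.659 CPM outside. When each of the 9 cultured libraries was left out in turn, 12 to 30 genes passed, 30 of them without NE replicate 1, and genes 2, 5 and 7 passed each time. Scaling the libraries by TMM (trimmed mean of M values) raised the median log2 ratio of all genes by 0.10 for NE and 0.16 for DBcAMP. With it 18 genes passed, 10 of the 17 among them. Those kept were genes 2, 3, 5, 7, 8, 9, 12, 13, 14 and 17. Genes 1, 4, 6, 10, 11, 15 and 16 did not pass, and several results below concern these genes. With group means in place of medians 12 genes passed, and 6 of the 17 (genes 2, 5, 7, 12, 14 and 15) were among them.

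Gene 5 had NE levels apart from both other conditions. It measured 4.37, 5.10 and 5.62 CPM in the untreated libraries, 5.54, 5.57 and 6.75 CPM with DBcAMP, and 10.1, 11.2 and 11.8 CPM with NE. All NE libraries stood above the rest, and the DBcAMP range met the untreated range. Gene 7 measured 24.6, 26.3 and 33.7 CPM untreated, 30.0, 30.5 and 33.6 CPM with DBcAMP, and 53.8, 53.9 and 61.6 CPM with NE. Its DBcAMP libraries fell wholly inside the untreated range. Gene 12, which had the lowest DBcAMP ratio, measured 9.66, 13.4 and 13.9 CPM untreated, 10.3, 12.9 and 13.1 CPM with DBcAMP, and 17.7, 24.9 and 25.4 CPM with NE, again without overlap of NE with either group.

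Other genes carried the label less well. Gene 1 measured 1.62, 1.67 and 1.96 CPM untreated and 3.36, 5.49 and 7.14 CPM with NE, and its DBcAMP libraries at 2.17, 2.35 and 5.89 CPM were all above the untreated ones, the highest inside the NE range. Gene 10, the most abundant, measured 94.8, 109 and 110 CPM untreated, 123, 132 and 164 CPM with DBcAMP and 203, 208 and 210 CPM with NE, so that its 3 groups formed separate steps. Gene 11 was also stepped, at 3.56, 3.57 and 3.79 CPM untreated, 4.30, 4.80 and 5.92 CPM with DBcAMP and 6.91, 7.20 and 8.10 CPM with NE. Every DBcAMP library stood above every untreated library for 6 of the 17 genes (1, 3, 6, 10, 11 and 16), as for 17.4% of all 13239 genes. Genes 3 and 6 had few read-pairs. Gene 3 had 3, 2 and 5 untreated and 11, 5 and 5 with DBcAMP, and gene 6 had 21, 12 and 24 against 20, 38 and 23. Their raw counts met or overlapped, so the separation came only with scaling to library depth. For genes 1, 10, 11 and 16 the libraries go against a label of no response to DBcAMP. The 17 genes are best called by the limits that selected them.

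The NE libraries stood wholly above the untreated ones for 15 of the 17 genes, the exceptions being genes 9 and 14, where 14.9% of all genes did so. They stood wholly above the DBcAMP libraries for 9 genes (2, 3, 5, 7, 10, 11, 12, 15 and 16), against 19.6% of all genes. Both counts follow from the selection. In edgeR fits with TMM scaling, which use all 3 libraries rather than the median, the log2 fold change of NE over untreated was 1.24 (SE 0.15) for gene 5, 1.09 (SE 0.11) for gene 7 and 1.08 (SE 0.07) for gene 10. The fitted value for DBcAMP over untreated was 0.41 (SE 0.18) for gene 5, 0.31 (SE 0.12) for gene 7 and 0.58 (SE 0.10) for gene 10, and reached 1.14 (SE 0.36) for gene 1 and 1.48 (SE 0.57) for gene 3. On that scale 14 of the 17 genes, gene 5 among them, were at or above the limit of 0.4 set for DBcAMP, and only genes 7, 9 and 12 were below it, at 0.31 (SE 0.12), 0.23 (SE 0.42) and 0.14 (SE 0.16). Gene 2 was scarce in culture, with 0.378, 0.419 and 0.745 CPM untreated, 0.450, 0.557 and 0.835 CPM with DBcAMP and 0.844, 1.98 and 2.14 CPM with NE.

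**Figure D2:**
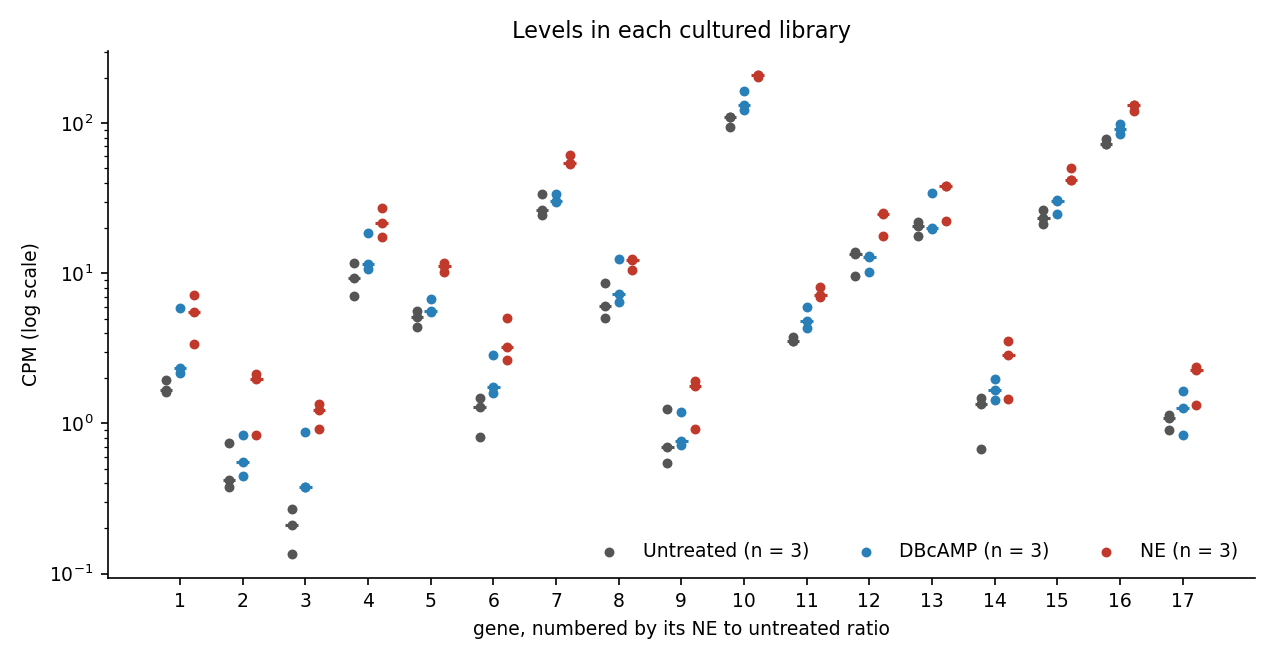
CPM on a log scale in each of the 9 cultured libraries for the 17 genes; points are libraries and bars group medians of untreated (grey), DBcAMP (blue) and NE (red) glands, 3 each. NE points lie above all untreated points except for genes 9 and 14.

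Per length, the 17 genes covered a wide range under NE, from 1.24 RPKM (gene 9) to 131 RPKM (gene 10), with a median of 7.98 RPKM, against 12.3 RPKM for all 13239 genes and 30.4 RPKM for the 477 raised by both agents. Genes 11, 16 and 15 followed gene 10, at 88.9, 54.6 and 54.0 RPKM. The rank of gene 11 rests on its short annotated length, since its NE level of 7.20 CPM was under the median of 11.2 CPM of the 17 genes. The annotated lengths ran from 79 to 10541 bases with a median of 1577. Genes 3 and 11 are 79 and 81 bases long, and such short features, under 100 bases, made up 1.53% of all genes and 16.1% of those raised by both agents.

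In vivo, 10 of the 17 genes (1, 3, 5, 7, 10, 11, 13, 14, 15 and 16) had every night library above every day library, both in Control, where 16.9% of all genes did so, and in Sham, where 14.9% did. In both groups at once this held for 11.9% of all genes. The median log2 night/day ratio of the 17 genes was 0.84 in Control and 1.07 in Sham, where that of all genes was -0.19 and -0.15 and that of the 477 genes raised by both agents 1.30 and 1.47. The selection excluded the strongest night genes in these same groups, so the ratios are a description. The exclusion also depended on the scale. By edgeR fits with TMM scaling and without the 0.5 CPM offset, gene 3 had log2 fold changes of 2.69 (SE 0.47) in Control and 3.20 (SE 1.04) in Sham. Those of gene 11 were 3.05 (SE 0.19) and 2.42 (SE 0.26). On that scale genes 3 and 11 both reached the limit of 2 in both groups. The median depends on the scaling used to select, since the 18 genes passing with TMM scaling had medians of 0.15 in Control and 0.60 in Sham.

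Gene 11 had the highest mean ratio, and in Control it measured 0.956, 1.03 and 1.11 CPM by day against 7.36, 7.37 and 8.28 CPM at night. In Sham it measured 1.85, 2.06 and 2.07 CPM by day and 8.52, 8.72 and 13.2 CPM at night. Day and night were far apart in both groups, with log2 ratios of 2.36 and 1.85. Gene 1 measured 3.71, 5.37 and 5.49 CPM by day in Control and 14.5, 17.2 and 17.3 CPM at night, and in Sham 3.46, 4.37 and 4.63 CPM by day and 18.0, 24.4 and 27.4 CPM at night. Its night libraries again stood clear of the day, with log2 ratios of 1.59 and 2.36.

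Gene 5 had a mean of 31.3 ± 1.5 CPM (SD, n = 3) by day and 140 ± 23 CPM at night in Control, and gene 10 of 193 ± 9.4 CPM and 571 ± 41 CPM. In Sham the means were 42.3 ± 6.3 and 135 ± 8.0 CPM for gene 5, and 208 ± 5.6 and 505 ± 69 CPM for gene 10. The remaining genes of the 10 had Control ratios from 0.81 (gene 14) to 1.99 (gene 15).

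The 7 other genes did not have night wholly above day. Gene 2 ran the other way, with 13.1, 21.6 and 34.8 CPM by day and 6.49, 11.1 and 11.5 CPM at night in Control, and 6.29, 8.05 and 9.86 CPM by day and 1.73, 1.88 and 4.25 CPM at night in Sham. It was the only one of the 17 with day wholly above night in both groups, where 40% of all genes in Control and 32% in Sham had day above night. Gene 4 measured 38.9, 39.8 and 63.5 CPM by day and 11.5, 25.2 and 35.7 CPM at night in Control, without overlap, and in Sham 40.7, 45.2 and 77.0 CPM by day and 16.3, 31.5 and 41.8 CPM at night, with overlap. Gene 12 was lower at night in Control (log2 ratio -0.37) and higher in Sham medians (0.77), where its libraries overlapped. Genes 6, 8, 9 and 17 overlapped between day and night in both groups.

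The selection did not use the single pineal libraries. They put all 10 genes with night wholly above day in Control and Sham higher at night. Of these, 7 had a log2 ratio of at least 0.8. Of all genes, 32.8% were higher and 5.21% reached 0.8. The 10 genes were grouped by their night rise in intact glands, so this result was likely beforehand. The shares over all genes are therefore no matched comparison. The share among all genes with the same Control and Sham pattern was not computed. Gene 5 was at 56.9 CPM (95% exact binomial interval 54.2 to 59.7) by day and 209 CPM (205 to 214) at night. Gene 1 was at 5.90 CPM (5.04 to 6.85) and 27.4 CPM (25.7 to 29.1). The smallest ratios were those of genes 13 and 14, at 0.05 and 0.15, and the day and night intervals overlapped for both, as they did for gene 3, which had 1 read-pair by day and 10 at night. The intervals cover counting error only.

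**Figure D3:**
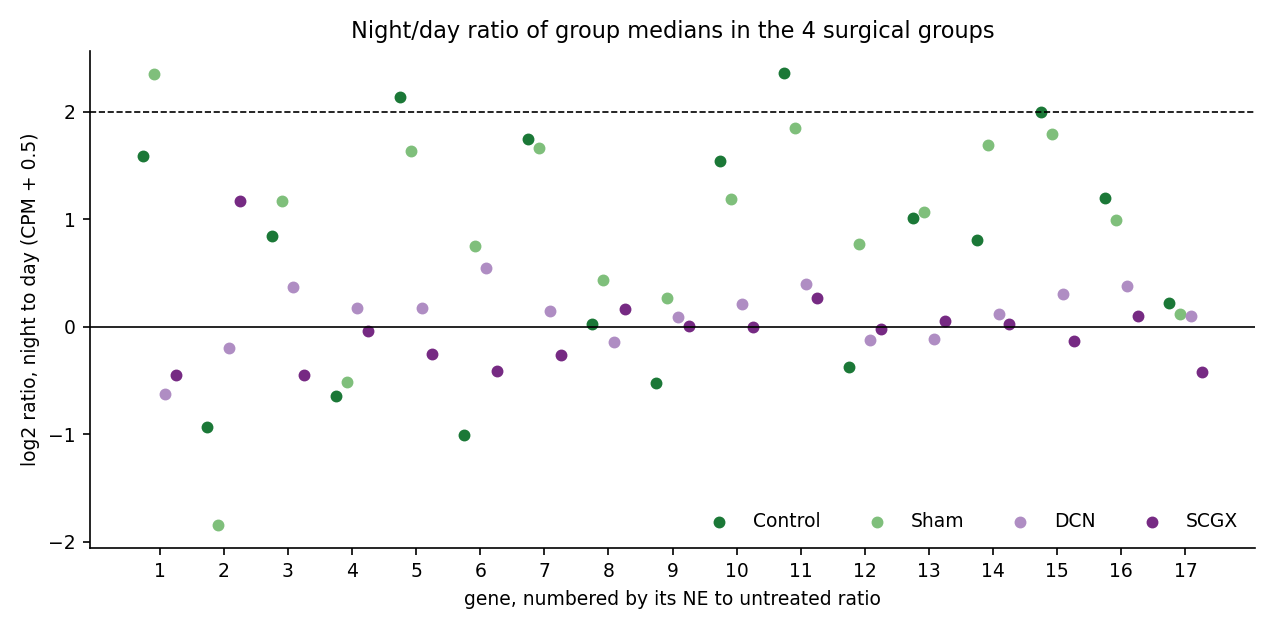
Log2 night/day ratio of group medians (CPM plus 0.5) for the 17 genes in Control, Sham, DCN and SCGX glands; the solid line marks no difference and the dashed line the limit of 2 that excluded genes reaching it in both Control and Sham. Control and Sham points of genes 1, 3, 5, 7, 10, 11, 13, 14, 15 and 16 lie between 0.81 and 2.36, and DCN and SCGX points between -0.62 and 1.17 for all 17.

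Cutting or removing the sympathetic input asks whether the night levels depend on it. In DCN glands none of 16 genes tested differed between night and day by the edgeR quasi-likelihood test with Benjamini-Hochberg adjustment over all genes, where 0% of 15924 genes were called. DESeq2 called none of these 16 either, and 3 genes (6, 11 and 16) had an unadjusted p under 0.05 in edgeR. The share of all 15924 genes at that unadjusted limit was not computed, so this count has no background to be set against. The same 3 had every night library above every day library, as did 6.46% of all genes. The fitted night/day log2 fold change of gene 5 was 0.37 (95% interval -0.24 to 0.97) and that of gene 10 was 0.23 (-0.01 to 0.48). Gene 11 had a log2 fold change of 0.61 (0.09 to 1.13), with 2.64, 3.36 and 3.59 CPM by day against 4.35, 4.60 and 5.37 CPM at night. Gene 3 was too scarce to test.

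In SCGX glands 1 of 14 genes tested rose at night, gene 2, where 1.05% of 15545 genes rose, 0.74% fell and 1.79% were called in all. It measured 4.49, 5.59 and 5.67 CPM by day and 12.9, 13.2 and 14.5 CPM at night, a log2 fold change of 1.33 (SE 0.13, edgeR quasi-likelihood test, adjusted p = 0.00365). Day and night did not overlap, and the direction was opposite to that in Control and Sham. In a model of all 24 in vivo libraries the edgeR adjusted p was 0.553 and the call was lost, and in the fits without 1 library it was 0.00615 to 0.0256. None of the other genes was called, and the night/day log2 fold change of gene 5 was -0.38 (95% interval -0.70 to -0.05), that of gene 10 was -0.06 (-0.17 to 0.04) and that of gene 11 was 0.06 (-0.36 to 0.49). Genes 3, 9 and 14 were too scarce to test.

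At night, 11 genes (1, 4, 5, 6, 7, 10, 11, 13, 14, 15 and 16) of 17 tested were lower in DCN than in Sham glands, against 8.26% of 15935 genes, and none was higher, against 8.93% (17.2% in either direction). In SCGX against Sham glands 11 genes (1, 4, 5, 6, 7, 10, 11, 13, 14, 15 and 16) were lower, against 9.18% of 15874 genes, and gene 2 was higher, against 11.7% (20.9% in either direction). The Sham libraries serve both comparisons, and they also entered the selection through the exclusion of night genes. The median fitted log2 fold change of the 17 genes was -1.50 in DCN and -1.64 in SCGX, where that of all genes tested was 0.03 in each. By group medians of CPM, their median log2 ratio to Sham at night was -0.90 in DCN and -0.85 in SCGX. That of the 477 genes raised by both agents was -1.20 and -1.14, so the lower night level was not particular to the 17 genes.

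The night level of gene 1 was 2.72, 2.77 and 3.55 CPM in DCN and 3.08, 3.24 and 3.64 CPM in SCGX, far under the 18.0 to 27.4 CPM of Sham. By the edgeR quasi-likelihood test its log2 fold change was -3.06 (SE 0.21, adjusted p = 0.000413) in DCN and -2.91 (SE 0.19, adjusted p = 0.000235) in SCGX. Gene 5 measured 16.0, 18.9 and 31.5 CPM at night in DCN and 25.1, 33.6 and 34.1 CPM in SCGX, against 130, 131 and 145 CPM in Sham. Its fitted log2 fold change was -2.72 (SE 0.26, edgeR adjusted p = 0.00136) in DCN and -2.23 (SE 0.13, edgeR adjusted p = 0.000154) in SCGX. Gene 10 differed less, with -0.64 (SE 0.13, edgeR adjusted p = 0.0218) in DCN and -0.57 (SE 0.12, edgeR adjusted p = 0.0164) in SCGX. Each of these groups lay wholly under Sham night, but the gene 10 calls were lost without DCN night replicate 1, DCN night replicate 2 or Sham night replicate 2 (edgeR adjusted p = 0.0861, 0.0873 and 0.0562), and without SCGX night replicate 1, 2 or 3 (edgeR adjusted p = 0.0673, 0.0654 and 0.076).

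By day the operated glands differed from Sham for fewer genes. In DCN, 3 of 16 genes tested were lower (4, 5 and 6, against 1.16% of 16074 genes) and 1 was higher (gene 10, against 0.989%), where 2.15% of genes were called in either direction. In SCGX, 3 of 15 were lower (4, 6 and 14, against 4.81% of 15750 genes) and 4 were higher (7, 10, 11 and 17, against 6.59%), where 11.4% were called in either direction. The DCN calls by day were fragile: leaving out DCN day replicate 2, DCN day replicate 3 or Sham day replicate 2 gave 0 genes called, leaving out Sham day replicate 3 gave 1 and leaving out Sham day replicate 1 gave 2. For SCGX, 2 genes were called without SCGX day replicate 3, 3 without SCGX day replicate 1 or 2, and 4 without Sham day replicate 2. At an adjusted p under 0.001 the counts by day were 0 in DCN (0% of all genes) and 1 in SCGX (0.73%), those at night 2 (0.891%) and 3 (1.78%), and that of SCGX night against day 0 (0.0193%).

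Gene 10 measured 286, 294 and 337 CPM by day in DCN and 368, 369 and 383 CPM in SCGX, all above the 202, 209 and 213 CPM of Sham day. Its log2 fold change by day was 0.50 (SE 0.09, edgeR adjusted p = 0.0436) in DCN and 0.86 (SE 0.06, edgeR adjusted p = 0.00026) in SCGX. At both times the operated level thus lay between the day and night levels of Sham. Gene 11 showed the same order, with 3.64, 3.75 and 4.88 CPM by day in SCGX, and a log2 fold change over Sham day of 1.06 (SE 0.21, edgeR adjusted p = 0.0183), a call lost without Sham day replicate 2, SCGX day replicate 1 or SCGX day replicate 3 (edgeR adjusted p = 0.0601, 0.0547 and 0.085). In DCN the day difference of gene 11 was 0.62 (SE 0.24, edgeR adjusted p = 0.19), which did not pass.

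Genes 4 and 6 were lower in operated glands at both times. Gene 4 measured 2.39, 3.32 and 12.2 CPM by day and 3.56, 3.82 and 5.32 CPM at night in DCN, and 4.19, 5.16 and 9.77 CPM by day and 4.13, 5.01 and 6.77 CPM at night in SCGX. All were under the lowest Sham library of either time, 16.3 CPM. They were not all under Control, where night replicate 1 held 11.5 CPM, less than the highest DCN day value of 12.2 CPM. By day its log2 fold change was -3.23 (SE 0.59, edgeR adjusted p = 0.0456) in DCN and -3.07 (SE 0.35, edgeR adjusted p = 0.00188) in SCGX, and at night -2.93 (SE 0.37, edgeR adjusted p = 0.00388) and -2.60 (SE 0.37, edgeR adjusted p = 0.00454).

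Gene 6 measured 0.582, 0.609 and 0.818 CPM by day and 1.12, 1.12 and 1.25 CPM at night in DCN, and 1.21, 1.43 and 1.78 CPM by day and 0.770, 0.952 and 1.19 CPM at night in SCGX. In Sham it measured 4.90, 6.71 and 21.8 CPM by day and 10.9, 11.6 and 14.5 CPM at night, all higher than in any operated library. Its log2 fold change at night was -3.51 (SE 0.20, edgeR adjusted p = 0.000234) in DCN and -3.75 (SE 0.23, edgeR adjusted p = 0.000214) in SCGX. Gene 6 was far more abundant outside the gland, at 799 CPM in the mixed tissue library against 19.5 and 15.6 CPM in the single pineal libraries. The part of other tissue in its pineal level was not tested.

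**Figure D4:**
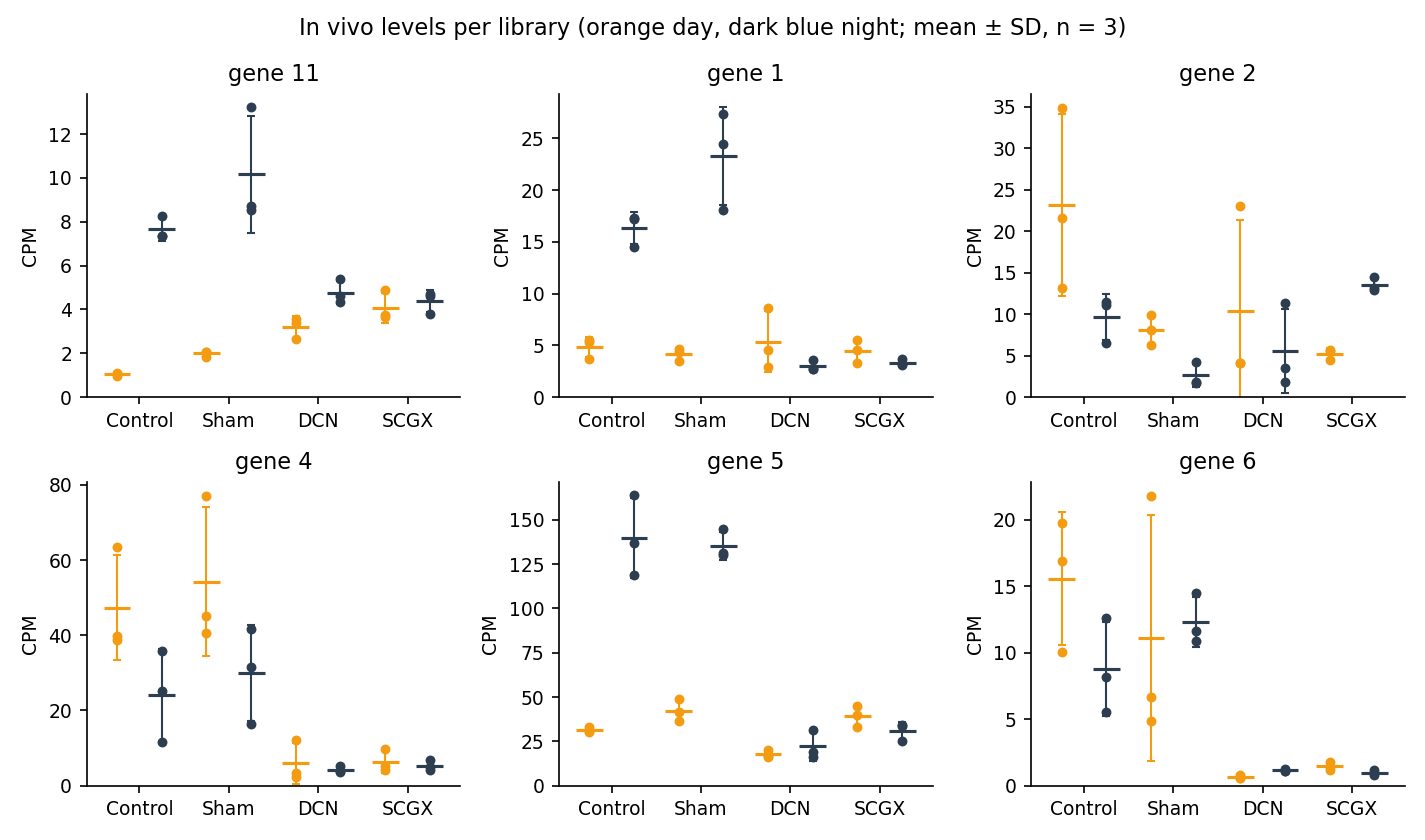
CPM in each in vivo library for genes 11, 1, 2, 4, 5 and 6 in the 4 surgical groups, by day (orange) and at night (dark blue); points are libraries, bars the mean and error bars the SD (n = 3). Genes 11, 1 and 5 have high night levels in Control and Sham alone, gene 2 is higher at night in SCGX, and genes 4 and 6 are lower in all operated libraries than in any Sham library.

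Gene 2 alone was higher at night in SCGX than in Sham, with a log2 fold change of 2.29 (SE 0.34, edgeR adjusted p = 0.00516). In DCN it varied too much to call, at 4.06, 4.14 and 23.1 CPM by day and 1.88, 3.55 and 11.3 CPM at night. DCN day replicate 1 held the high day value, and its median correlation with its own group was 0.977, against 0.984 and 0.983 for the other two. The same library held the highest DCN day value of gene 4 (12.2 CPM), gene 1 (8.62 CPM) and gene 9 (2.58 CPM). It was also highest for genes 5, 6, 13 and 14, with 0.881 CPM of gene 14 against 0.203 and 0.129 CPM. This did not hold for every gene, and for genes 10 and 11 it was the lowest. Gene 9 also stood at 3.62 CPM in Sham night replicate 3, against 0.162 and 0.251 CPM in the other Sham night libraries, and at 14.4 CPM in mixed tissue. That Sham library correlated least with its group, at 0.964, and leaving it out kept the number of genes called at night at 11 in DCN and gave 13 in SCGX.

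**Figure D5:**
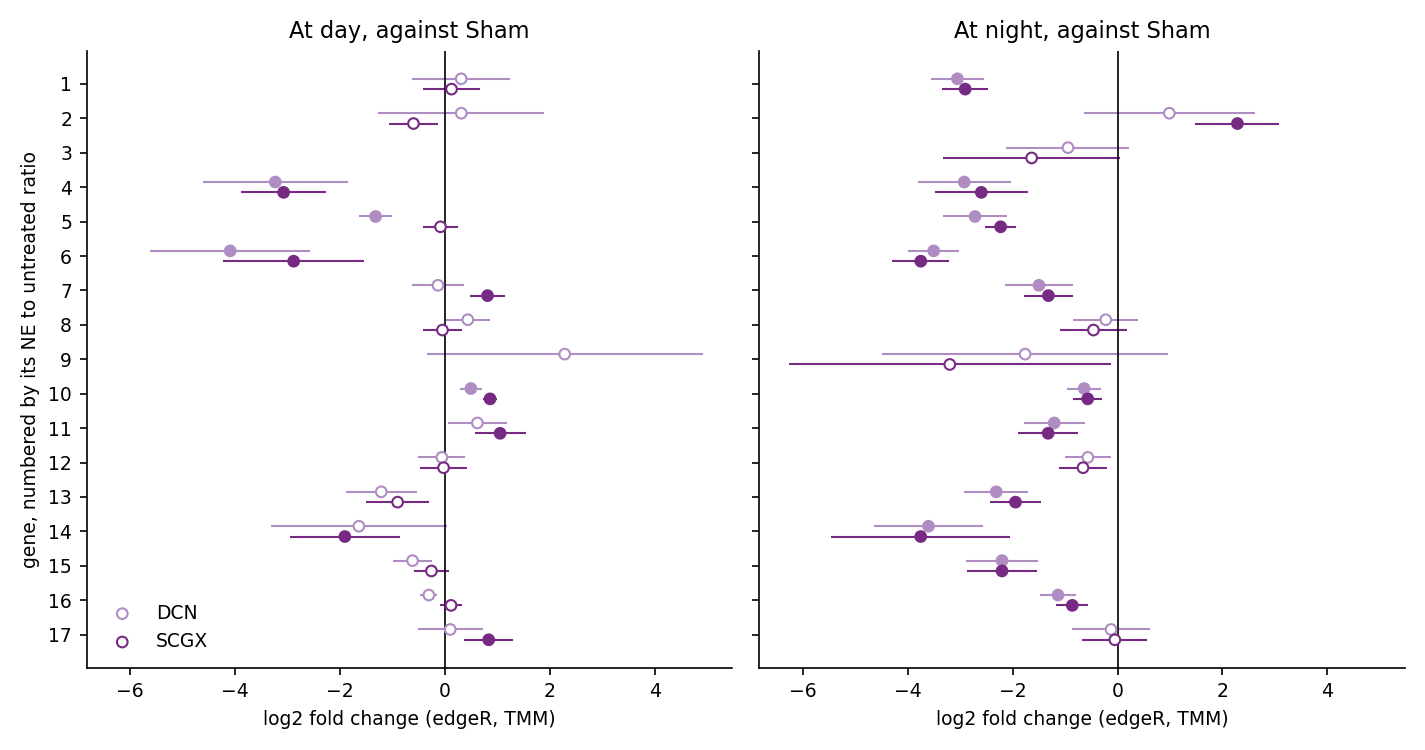
Fitted log2 fold change of DCN (light purple) and SCGX (dark purple) against Sham by day (left) and at night (right) for the genes tested; lines are 95% intervals and filled points have an edgeR adjusted p under 0.05. At night 11 genes are lower in each operated group and gene 2 is higher in SCGX; by day genes 4 and 6 are lower in both.

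The levels in culture differed from those in vivo. The cultured glands came from older rats, all female, and the in vivo glands from both sexes. Both experiments were also sequenced apart, so culture, age, sex and experiment cannot be told apart. Gene 13 measured 17.8, 20.6 and 22.1 CPM in untreated culture against 2.42, 2.46 and 4.78 CPM in Control day glands. Gene 2 lay the other way, at 0.378 to 0.745 CPM in untreated culture against 13.1 to 34.8 CPM. Of the 17 genes, 12 were lower in untreated culture than in Control day glands, by group medians, and 5 were higher, where 54.9% of all 13239 genes were lower.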

How the data were processed

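Strand-specific libraries from total RNA depleted of ribosomal RNA were aligned by the authors to rn4 using RNA-STAR and Ensembl gene models. QoRTs, under the HTSeq union rule, gave the deposited counts, which are raw numbers of read-pairs on each gene. The RPKM values the authors deposited are those counts per kilobase and per 1000000 read-pairs on genes, and were used for gene lengths and levels per length. The submitters' processing notes name STAR 2.3.1y. Libraries held 12985072 to 18504240 read-pairs on genes in vivo, 12556861 to 18524435 in vitro and 28836161 to 38574186 as single libraries. The labels call the replicates biological, and every group came from the labels.

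CPM, medians and the selection were computed in Python 3.11.15. Operated groups were compared in edgeR 4.0.16 (R 4.3.3) with TMM scaling, the quasi-likelihood test on the 6 libraries compared, a mean normalized count of at least 5 and Benjamini-Hochberg adjustment over all genes tested. A gene was called at an adjusted p under 0.05. Standard errors were taken from the F statistic and 95% intervals from its t distribution. Alternatives were DESeq2 1.42.0, other scalings, no filter, all in vivo libraries in 1 model, a replicate block, a limit of 0.001, members chosen with TMM scaling and each library left out. The tests were checked on simulated counts with 200 genes changed 2-fold. The share recovered ran from 49% (DCN against Sham at night) to 92% (SCGX night against day). The number of unchanged genes called was 4 to 18. A gene not called is thus not shown to be unchanged. The selected genes and the lists were chosen with earlier results of these data known. None of the identifiers (0) could be paired with a symbol in the gene table used, so the pathway lists, cell type markers, promoter motifs and sequences were not analysed here. The naming rule for genes without symbols allowed 2 identifiers at each end of the night/day order. The other genes are named by number where a result turned on them.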

Additional observations from a re-analysis of the deposited data

Results flagged for a closer look

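These results were picked because every library of one group moved one way and every library of another the opposite way; none of the differences was tested, and with 3 libraries a group no search for single stray libraries was made. Gene 2 was higher at night in SCGX and lower in Control and Sham, with a difference in log2 night/day ratio of SCGX minus Control of 2.1 and SCGX minus Sham of 3.02; put as SCGX against Sham, night minus day, the difference is the same 3.02. Gene 7 was lower at night in SCGX and higher in Control and Sham, with differences of -2.01 from Control and -1.93 from Sham, and -1.93 as SCGX against Sham, night minus day. Gene 6 was lower at night in SCGX and higher in DCN, a difference of -0.96. In SCGX the gaps were narrow, with a lowest day and highest night value of 163 and 161 CPM for gene 7 and 1.21 and 1.19 CPM for gene 6. By the edgeR quasi-likelihood test of night against day, neither gene was called in SCGX (adjusted p = 0.178 for gene 7 and 0.29 for gene 6). Gene 6 was not called in DCN either (edgeR adjusted p = 0.524). Genes 10 and 11 were above Sham by day and below it at night in both operated groups. For gene 10 the night minus day difference was -0.98 in DCN and -1.2 in SCGX, and for gene 11 it was -1.45 in DCN and -1.58 in SCGX.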

How the results depend on the processing

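Of 35 calls on single genes in the 6 comparisons, none changed direction in any alternative, 20 held in every fit without 1 library and 28 under every other setting of scaling, filter, tool or model. The number of selected genes, 17, became 32 with an offset of 0.1, 11 with an NE level of at least 5 CPM, 7 with an NE ratio of at least 1, 2 with a DBcAMP ratio below 0, 12 with group means, of which 6 were among the 17, and 12 to 30 without 1 library. The median night/day ratio with genes selected on TMM scaling was 0.15 in Control and 0.60 in Sham; without 1 library of the group it was 0.80 to 1.10 and 0.90 to 1.15. Members called were 4 for DCN against Sham by day, and 7 with DESeq2, 1 with TMM selection, 0 at an adjusted p under 0.001 and 0 to 3 without 1 library. For DCN against Sham at night, 11 became 2 at 0.001, 6 with TMM selection and 8 to 12 without 1 library. For SCGX against Sham by day, 7 became 1 at 0.001 and 2 to 7 without 1 library. For SCGX against Sham at night, 12 became 3 at 0.001, 7 with TMM selection and 9 to 13 without 1 library. For SCGX night against day, 1 became 2 with DESeq2, 2 with TMM selection, 0 in a model of all 24 libraries, 0 at 0.001 and stayed 1 without 1 library. For DCN night against day the count was 0 throughout. The stricter limit passes fewer genes by construction, and the cause of the other changes was not tested.

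The labels do not state that replicate numbers pair the samples. Correlations of same-numbered libraries' deviations from their group means were -0.08 to 0.13. With the replicate number as a block, calls were 2 for DCN against Sham by day and 2 for SCGX night against day, and 9 for DCN against Sham at night, 6 for SCGX against Sham by day and 12 for SCGX against Sham at night. In most pairs the correlation with the same number was below the highest with another number. A single value was set there against the highest of several, which is likely without any pairing, so that comparison cannot decide it. The depth left gene 3 untested in 4 comparisons.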
